A study of Mus musculus with 12 samples.

Results

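Mx1, Mx2, Rsad2, Cmpk2, Bst2, Samhd1 and Ifi44 are interferon-stimulated genes (ISGs) whose products act on viruses or their building blocks, and they were followed here across WT and Pim1-/- macrophages. They were chosen by name from the 23997 gene names in the deposited files, as 7 of the antiviral effectors listed there and not all of them. RNA-seq had been performed on bone marrow-derived macrophages (BMDMs), macrophages grown from marrow cells with recombinant human macrophage colony-stimulating factor. The 12 libraries formed 4 groups of 3, since cells of each genotype were either left untreated or given LPS, the bacterial ligand of TLR4, at 100 ng/ml for 4 h. All cells came from male C57BL/6 mice aged 8 to 10 weeks, and the Pim1-/- mice carried a germline CRISPR-Cas9 deletion of exons I–V of Pim1, a serine/threonine kinase gene. The deletion was thus present in every cell throughout growth and differentiation, so an effect on the LPS response and one on how the macrophages formed cannot be told apart. The labels number the 3 libraries of a group without saying whether they came from separate mice or cultures, so the p-values measure the spread between these libraries, which may be technical.

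LPS bound to TLR4 signals through the adaptor TRIF to the transcription factor IRF3, which drives the interferon-beta gene. Secreted type I interferon then acts on its receptor and the JAK-STAT pathway, and ISGs are transcribed through interferon-stimulated response elements (ISREs) that bind ISGF3 and IRF proteins. The 7 genes stand at the end of this pathway. Mx1 and Mx2 encode dynamin-like GTPases that trap viral components, and common inbred laboratory mouse strains, C57BL/6 among them, carry defective alleles of both. Rsad2 encodes viperin, a radical SAM enzyme that makes a chain-terminating nucleotide from CTP, and Cmpk2 encodes a mitochondrial nucleotide kinase that supplies such substrates. Bst2 encodes tetherin, which holds budding virions at the cell surface, and Samhd1 encodes a hydrolase that lowers the dNTP pool needed for reverse transcription. Ifi44 encodes an interferon-induced protein whose role is less clear.

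On GRCm38 (annotation GENCODE M21), Mx1 lies on chromosome 16 from 97447035 to 97462907 on the - strand, and Mx2 on the same chromosome from 97535308 to 97560900 on the + strand, 72400 bases apart. Both are typed as transcribed pseudogenes in RefSeq, while GENCODE types Mx1 as protein coding and Mx2 as a polymorphic pseudogene. Of the 50-base stretches in their transcripts, at most 3.86% of those of Mx1 and 4.38% of those of Mx2 also occurred in the other gene. Few reads could thus be placed in either. Rsad2 (chromosome 12, 26442746 to 26456452, - strand) and Cmpk2 (chromosome 12, 26469204 to 26479837, + strand) are neighbours that point away from each other across 12751 bases. Bst2 lies on chromosome 8 from 71534255 to 71537456, Samhd1 on chromosome 2 from 157097533 to 157135265 and Ifi44 on chromosome 3 from 151730922 to 151749960, all on the - strand. None of the 7 overlapped another annotated gene. In Samhd1, 1.70% of the stretches also occurred in other genes.

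Values are FPKM, fragments scaled to transcript length and to a factor per library. Levels can thus be compared between genes, while comparisons between libraries depend on that factor. Pim1 itself was at 25.0, 21.5 and 22.3 FPKM in untreated WT cells and 8.70, 8.00 and 9.51 FPKM in untreated Pim1-/- cells. With LPS the WT libraries held 665, 630.2 and 641 FPKM of it and the Pim1-/- libraries 216, 205 and 236 FPKM. Every Pim1-/- library was thus below every WT library of the same treatment, although each value counts reads over the complete gene, deleted exons and remaining ones alike. Column sums were higher after LPS in both genotypes. An estimate from genes with very low values gave 39200000 to 50700000 assigned fragments per library, with overlapping ranges in the 4 groups. Of 10 macrophage markers, 9 were at 10 FPKM or more in untreated WT cells, and the 10 summed to 14400 FPKM or more in every library. The marker lists of other cell types summed at most, in any library, to 66.1 FPKM for plasmacytoid dendritic cells, 63.6 for B cells, 8.46 for conventional dendritic cells, 8.20 for neutrophils and 5.40 FPKM for T and NK cells.

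The 7 genes fell into 2 sets by their level in untreated WT cells. Bst2 was the highest at 107.8 ± 0.715 FPKM (SD, n = 3), followed by Samhd1 at 54.8 ± 0.964 FPKM. The other 5 were low: Cmpk2 at 4.73 ± 0.172, Rsad2 at 4.71 ± 0.328, Mx1 at 1.41 ± 0.129, Mx2 at 0.843 ± 0.103 and Ifi44 at 0.245 ± 0.0245 FPKM. Cmpk2 and Rsad2 overlapped in their libraries, and every other pair of neighbours in this order was separated by more than its spread. In untreated Pim1-/- cells the order was the same except that Mx2 stood above Mx1, both from an estimated 13 fragments or fewer per library.

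**Figure D1:**
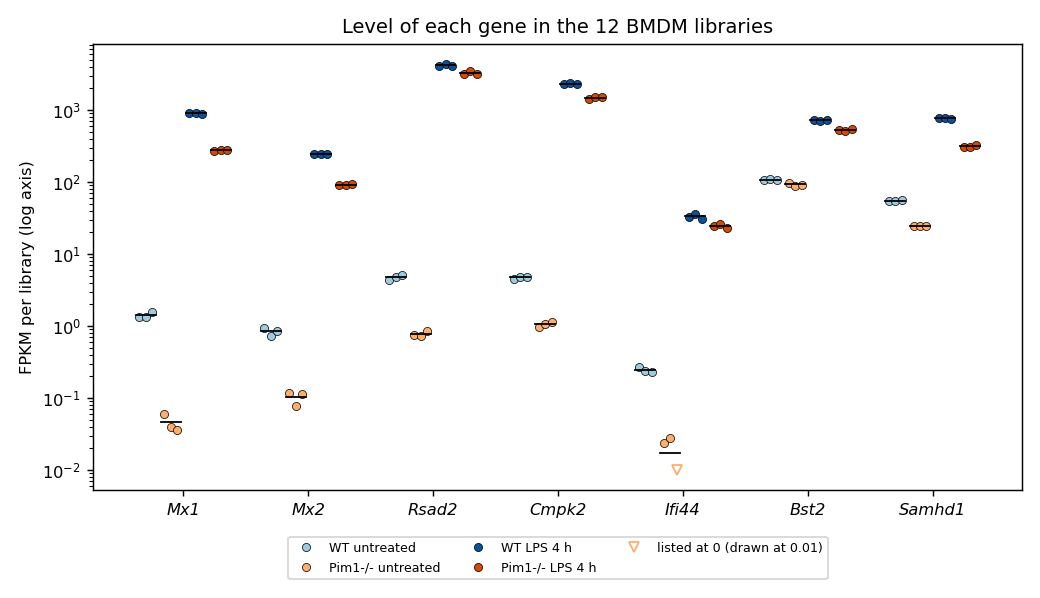
Level of the 7 genes in each of the 12 libraries, in FPKM on a log axis, with 1 point per library and a line at each group mean. Ifi44 was listed at 0 in 1 untreated Pim1-/- library and is drawn at 0.01. For every gene the 3 Pim1-/- points lie below the 3 WT points of the same treatment at this deposited scaling. Scaled to Actb, the log2 fold change between genotypes was above 0 for Bst2 in untreated cells. After LPS it was then below 0 only for Mx1, and that of Mx2 was 0.02 (adjusted p = 0.74, limma).

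After LPS the order changed. Rsad2 reached 4160 ± 134 FPKM in WT cells and ranked 21st among the genes tested, and Cmpk2 reached 2319 ± 16.9 FPKM. Mx1 followed at 896.5 ± 13, Samhd1 at 762 ± 7.94, Bst2 at 721 ± 16.9, Mx2 at 245 ± 1.2 and Ifi44 at 33.4 ± 2.81 FPKM, and no neighbours in this order overlapped. In LPS-treated Pim1-/- cells Rsad2 was again at rank 21 among the genes tested, whereas Cmpk2 was at rank 78, against 43 in LPS-treated WT cells. Cmpk2 again came next to Rsad2 among the 7, but Mx1 moved from the third to the fifth place, below Bst2 and Samhd1. The 7 genes together summed to 9138 FPKM on average in LPS-treated WT cells, or 1.09% of all FPKM, and to 5999 FPKM in LPS-treated Pim1-/- cells, or 0.821%. Rsad2 alone made up 45.5% of that sum in WT and 54.8% in Pim1-/- cells.

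The comparison of Pim1-/- with WT BMDMs after LPS asks whether Pim1 loss changes the expression of antiviral genes once TLR4 has been triggered. At the deposited scaling all 7 genes were lower in LPS-treated Pim1-/- cells, although 6 of them stood above 0 when scaled to Actb, and they separated into 3 that fell to less than 50% of WT and 4 that were at 64.0% to 79.0% of WT. The largest decreases were those of Mx1, Mx2 and Samhd1. A gene was called when it changed more than 2-fold on the log2(FPKM + 1) scale and had, in limma, an FDR (Benjamini-Hochberg) under 0.1 besides a raw p under 0.05. The 3 of 7 genes called lower stand beside 5.15% of the 10581 genes tested. For each of the 7, the highest Pim1-/- library stood under the lowest WT library, which was also so in 41.8% of all genes tested. The median log2 fold change of the 7 was -0.65, against -0.03 over all genes tested.

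Mx1 was at 905, 903 and 882 FPKM in the LPS-treated WT libraries and at 271, 282 and 275 FPKM in the LPS-treated Pim1-/- libraries. The groups were far apart and each was tight, and Pim1-/- cells held on average 30.8% of the WT level. Its log2 fold change was -1.70 ± 0.043 (SE; adjusted p = 3.7e-14, limma), the 109th lowest of the 10581 genes tested. Its paralog Mx2 was at 245, 244 and 247 FPKM in the WT libraries, against 90.2, 91.3 and 93.8 FPKM in the Pim1-/- ones, again without overlap. Its log2 fold change was -1.41 ± 0.047 (adjusted p = 6.2e-13, limma). Both Mx genes were therefore reduced, and Mx1 somewhat more: the ratio of Mx1 to Mx2 was 3.66 ± 0.0700 (SD, n = 3) in WT and 3.01 ± 0.0771 in Pim1-/- cells after LPS.

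Samhd1, the dNTP hydrolase, was at 761, 771 and 755 FPKM in LPS-treated WT cells and at 305, 308 and 326 FPKM in LPS-treated Pim1-/- cells. The groups did not overlap, and the log2 fold change was -1.28 ± 0.037 (adjusted p = 1.4e-13, limma), or 41.1% of the WT mean.

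The viperin pair was reduced less. Rsad2 was at 4046, 4307 and 4127 FPKM in LPS-treated WT cells and at 3204, 3472 and 3182 FPKM in LPS-treated Pim1-/- cells. The highest Pim1-/- library thus lay below the lowest WT library, with a log2 fold change of -0.34 ± 0.051 (adjusted p = 1.8e-05, limma), which is less than 2-fold. Cmpk2 was at 2310.0, 2339 and 2309 FPKM in the WT libraries, against 1441, 1517 and 1491 FPKM in Pim1-/- cells, a log2 fold change of -0.65 ± 0.042 (adjusted p = 1.7e-09, limma). Bst2 (tetherin) was at 736, 703 and 725 FPKM in the WT libraries, against 526, 504 and 543 FPKM in Pim1-/- cells, at -0.46 ± 0.043 (adjusted p = 1.1e-07, limma). Ifi44 was at 32.9, 36.4 and 30.9 FPKM in the WT libraries, against 24.6, 25.9 and 23.3 FPKM in Pim1-/- cells, at -0.43 ± 0.061 (adjusted p = 1.1e-05, limma). These 4 genes passed the FDR threshold and missed the 2-fold threshold, and 43.4% of all genes tested were lower at this FDR.

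The decreases after LPS depend on the deposited scaling of the libraries. Actb, the beta-actin gene, was itself at 36.9% of its WT mean in LPS-treated Pim1-/- cells. Scaled to Actb, an alternative added after the data were seen, the median over all genes tested rose to 1.05 and only Mx1 stayed below 0, at -0.26, while Mx2 was at 0.02, Samhd1 at 0.16 and the other 4 between 0.80 and 1.10. Relative to that median all 7 except Rsad2 remained lower. Under quantile normalization and under scaling to a common column sum, Mx1, Mx2 and Samhd1 were still called lower, and Rsad2 was at -0.09 and -0.13.

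**Figure D2:**
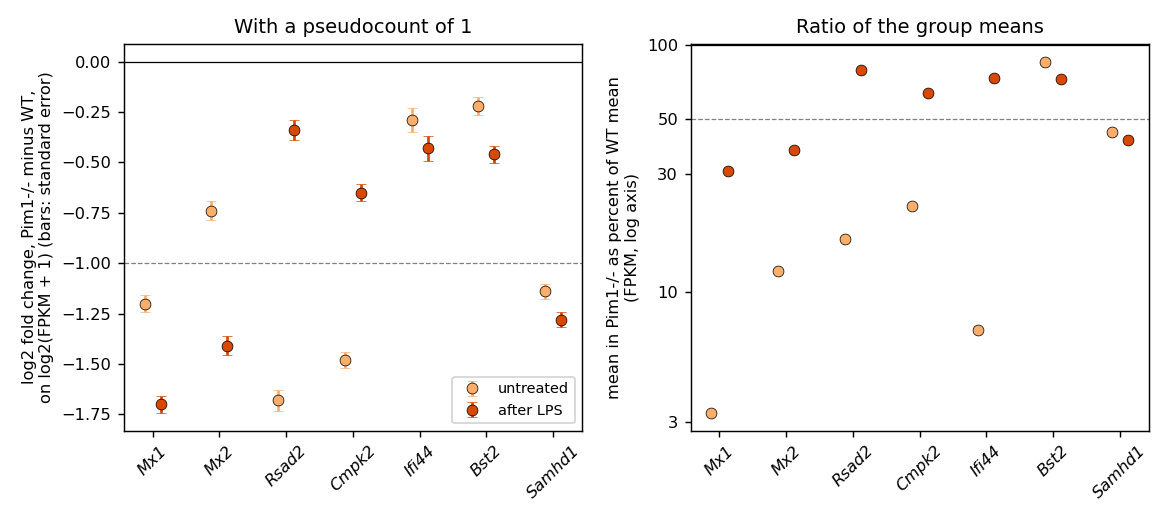
Pim1-/- against WT for each gene in untreated cells (light points) and after LPS (dark points), on the left as the log2 fold change on log2(FPKM + 1) with its standard error and on the right as the Pim1-/- mean in percent of the WT mean on a log axis. Dashed lines mark a 2-fold decrease. All points lie below WT at the deposited scaling. Scaled to Actb, Bst2 in untreated cells and all genes except Mx1 after LPS were above WT, Mx2 by only 0.02 (log2). Ifi44 in untreated Pim1-/- cells includes 1 library at 0. Rsad2 and Cmpk2 move towards WT after LPS in both panels, whereas Mx1, Mx2 and Ifi44 move away from it on the left and towards it on the right.

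Untreated cells show the level of these genes before any TLR ligand was added. All 7 genes were already lower in untreated Pim1-/- cells, from 3.25% of the WT mean for Mx1 to 85.6% for Bst2, which alone turned to a higher value when scaled to Actb. On the log2(FPKM + 1) scale 4 of the 7 were called lower, Rsad2, Cmpk2, Mx1 and Samhd1, against 3.37% of all genes tested. The 3 values of each genotype did not overlap for any of the 7, against 44.2% of all genes tested that were lower without overlap. Their median log2 fold change was -1.14, against -0.05 over all genes tested.

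Rsad2 was at 4.37, 4.74 and 5.02 FPKM in untreated WT cells and at 0.751, 0.722 and 0.854 FPKM in untreated Pim1-/- cells. The Pim1-/- mean was 16.5% of the WT mean, with a log2 fold change of -1.68 ± 0.051 (adjusted p = 1.6e-13, limma), the 73rd lowest of the genes tested. Cmpk2 behaved alike, at 4.53, 4.80 and 4.85 FPKM in WT libraries, against 0.959, 1.06 and 1.15 FPKM in Pim1-/- cells, or 22.4% of WT. Its log2 fold change was -1.48 ± 0.042 (adjusted p = 8.9e-14, limma). With a pseudocount of 1 and at the deposited scaling these were the lowest 2 log2 fold changes of the 7, whereas as a percent of WT, and with a pseudocount of 0.1 or scaled to Actb, Mx1 was the lowest.

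Mx1 was at 1.34, 1.33 and 1.56 FPKM in untreated WT cells and at 0.0608, 0.0398 and 0.0363 FPKM in untreated Pim1-/- cells. By an upper estimate the latter values stand for 9.4, 5.4 and 5.4 fragments, so Mx1 was close to the detection limit there, and its ratio of 3.25% is imprecise. The log2 fold change, which the pseudocount of 1 holds near 0 for such low values, was -1.20 ± 0.043 (adjusted p = 1.4e-12, limma). Under quantile normalization it was -0.99 and no longer past 2-fold. Mx2 was at 0.938, 0.733 and 0.857 FPKM in the WT libraries, against 0.117, 0.0784 and 0.112 FPKM in Pim1-/- cells, or 12.2% of WT, with a log2 fold change of -0.74 ± 0.047 (adjusted p = 1.2e-09, limma). With a pseudocount of 0.1 the log2 fold change of Mx2 was -2.22 and that of Mx1 -3.37, and both were called.

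Samhd1 was at 54.0, 54.5 and 55.8 FPKM in untreated WT cells and at 24.3 FPKM in each of the 3 untreated Pim1-/- libraries, or 44.4% of WT. Its log2 fold change was -1.14 ± 0.037 (adjusted p = 3.5e-13, limma), and scaled to Actb it was -0.80 and no longer called. Bst2 was at 107, 109 and 107 FPKM in the WT libraries, against 97.5, 89.0 and 90.3 FPKM in Pim1-/- cells, a log2 fold change of -0.22 ± 0.043 (adjusted p = 2.3e-04, limma). Bst2 was the member with the smallest difference here, and scaled to Actb it was at 0.14, below the median of all genes of 0.27. Ifi44 was at 0.273, 0.237 and 0.226 FPKM in WT cells, and in Pim1-/- cells it was at 0.0241 and 0.0276 FPKM and listed at 0 in 1 library. These values stand for about 4.5, 4.5 and 0 fragments, and its log2 fold change was -0.29 ± 0.061 (adjusted p = 4.5e-04, limma) with a pseudocount of 1 and -1.57 with 0.1.

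LPS raised all 7 genes in both genotypes. The 7 of 7 genes called higher stand beside 20.1% of all genes tested in WT cells and 14.6% in Pim1-/- cells, and no LPS-treated library overlapped an untreated one for any of the 7, against 45.5% and 41.7% of all genes tested that were higher without overlap. Mx2 and Ifi44 reached 1 FPKM only in LPS-treated libraries and entered the test through them, so their rise was built into the filter. The median log2 fold change of the 7 was 7.06 in WT and 6.39 in Pim1-/- cells, against 0.00 and -0.01 over all genes tested.

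Rsad2 rose the most, by a log2 fold change of 9.51 ± 0.051 in WT cells (adjusted p = 2.7e-23, limma) and 10.85 ± 0.051 in Pim1-/- cells (adjusted p = 8.5e-24, limma). It had the 13th highest log2 fold change of all genes tested in WT and the 6th highest in Pim1-/- cells. As a ratio of mean FPKM these were increases of 883-fold and 4234-fold. Cmpk2 rose by 8.66 ± 0.042 in WT and 9.50 ± 0.042 in Pim1-/- cells on the log2 scale, or 491-fold and 1404-fold. The viperin pair therefore rose more in Pim1-/- cells, from a lower start.

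Mx1 rose by 8.54 ± 0.043 on the log2 scale in WT and by 8.05 ± 0.043 in Pim1-/- cells, and Mx2 by 7.06 ± 0.047 and 6.39 ± 0.047. The ratios of mean FPKM were 637-fold and 6044-fold for Mx1 and 291-fold and 895-fold for Mx2. The larger ratios in Pim1-/- cells rest on the few fragments seen without LPS. Ifi44 rose by 4.79 ± 0.061 in WT and 4.65 ± 0.061 in Pim1-/- cells, and no ratio is given for the latter because 1 untreated library was at 0.

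The 2 genes with a high basal level rose least. Samhd1 rose 13.9-fold in WT and 12.9-fold in Pim1-/- cells, and Bst2 6.69-fold and 5.69-fold. Their log2 fold changes were 3.78 ± 0.037 and 3.63 ± 0.037 for Samhd1, and 2.73 ± 0.043 and 2.49 ± 0.043 for Bst2. Scaled to Actb, which rose 6.09-fold with LPS in WT cells, the Bst2 change was 0.14 in WT and 0.98 in Pim1-/- cells and was not called, while the median over all genes was -2.16 and -1.40.

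Whether LPS acted differently in the 2 genotypes was tested as the difference of the log2 responses, Pim1-/- minus WT. Rsad2 was the only 1 of the 7 called, with a difference of 1.34 ± 0.072 (adjusted p = 5.8e-10, limma), and 2.24% of all genes tested were called in this direction. Cmpk2 moved the same way, at 0.83 ± 0.060 (adjusted p = 1.4e-08, limma), and was past 2-fold under quantile normalization (1.05), a common column sum (1.12) and a pseudocount of 0.1 (1.42). The difference was above 0 for both genes under each scaling tried.

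For Mx1 the difference was -0.50 ± 0.061 (adjusted p = 5.1e-06, limma) and for Mx2 -0.67 ± 0.066 (adjusted p = 4.4e-07, limma) with a pseudocount of 1. With a pseudocount of 0.1 both turned positive, at 1.67 and 0.80, because their untreated Pim1-/- levels lie well below 1 FPKM. The direction of the Mx genes is thus set by how values under 1 FPKM are weighed. In FPKM, Mx1 in Pim1-/- cells was at 3.25% of a low WT level without LPS and at 30.8% of a high WT level with it. Bst2 at -0.24 ± 0.061 (adjusted p = 0.0034, limma) and Samhd1 at -0.14 ± 0.052 (adjusted p = 0.027, limma) differed by little. Ifi44 at -0.13 ± 0.086 (adjusted p = 0.19, limma) did not pass the FDR threshold. Of all genes tested 68.5% passed it in this comparison. Samhd1 was at 0.23 under quantile normalization and 0.02 under a common column sum, and scaled to Actb all 7 differences were positive, beside a median over all genes of 0.80.

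**Figure D3:**
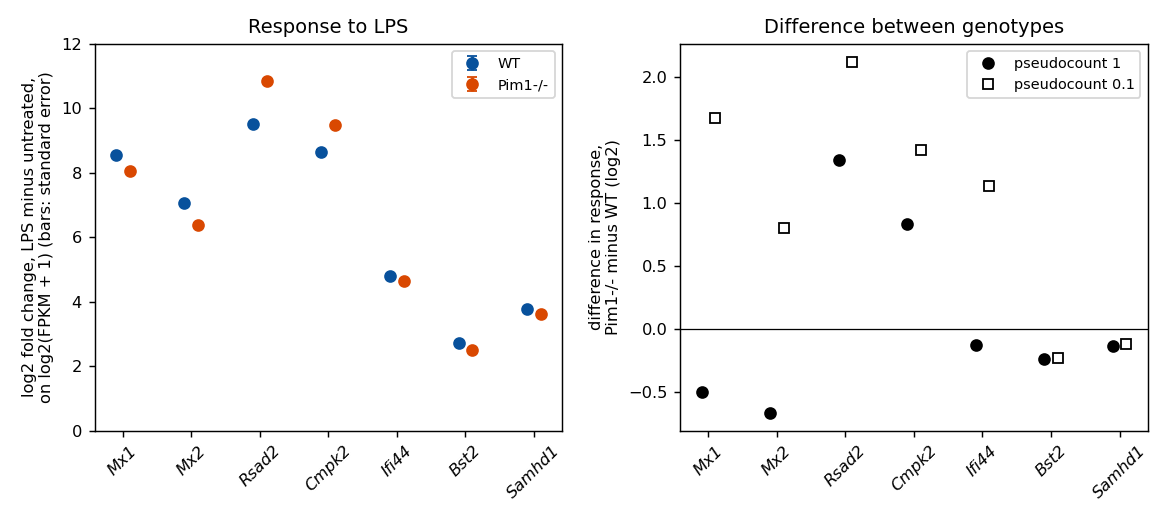
Left, response to LPS of each gene in WT and Pim1-/- cells as the log2 fold change on log2(FPKM + 1), with standard errors smaller than the points. Right, the difference between the 2 responses with a pseudocount of 1 (filled) and 0.1 (open). Rsad2 and Cmpk2 stand above 0 with both pseudocounts, while Mx1, Mx2 and Ifi44 change sign between them and Bst2 and Samhd1 stay slightly below 0.

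The 2 neighbouring pairs did not keep a fixed ratio. Rsad2 and Cmpk2 were about equal in untreated WT cells, with a ratio of 0.996 ± 0.0363 (SD, n = 3), and the ratio was 0.736 ± 0.0504 in untreated Pim1-/- cells. After LPS it was 1.79 ± 0.0454 in WT and 2.22 ± 0.0769 in Pim1-/- cells, so Rsad2 rose more than Cmpk2 in both genotypes. The ratio of Mx1 to Mx2 was 1.68 ± 0.225 in untreated WT and 0.450 ± 0.110 in untreated Pim1-/- cells, the 1 group in which Mx2 exceeded its paralog. By the upper estimate both genes rest on 13 fragments or fewer per library in that group, so this ratio is imprecise.

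The sequence upstream of the start site was read for the members with an entry in the RefSeq promoter table (GRCm38.p6), which were Rsad2, Cmpk2, Bst2, Samhd1 and Ifi44. The 250 bases before the start were searched on both strands for an ISRE core (GAAA, any 2 bases, GAAA), the shorter IRF core AANNGAAA that each ISRE core contains, the GAS element TTCNNNGAA and the kappaB consensus. Windows of 4 genes are printed to set those with IRF or ISRE core matches beside one without. They lie at chr12:26456453-26456702 (Rsad2, - strand), chr8:71537473-71537722 (Bst2, - strand), chr3:151749911-151750160 (Ifi44, - strand) and chr12:26468965-26469214 (Cmpk2, + strand), and capitals mark matches to either core.
Rsad2: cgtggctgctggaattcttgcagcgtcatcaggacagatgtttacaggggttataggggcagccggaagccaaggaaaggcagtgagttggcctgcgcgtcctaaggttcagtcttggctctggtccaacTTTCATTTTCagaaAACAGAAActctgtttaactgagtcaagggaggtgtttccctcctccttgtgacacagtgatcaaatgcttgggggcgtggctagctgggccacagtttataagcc
Bst2: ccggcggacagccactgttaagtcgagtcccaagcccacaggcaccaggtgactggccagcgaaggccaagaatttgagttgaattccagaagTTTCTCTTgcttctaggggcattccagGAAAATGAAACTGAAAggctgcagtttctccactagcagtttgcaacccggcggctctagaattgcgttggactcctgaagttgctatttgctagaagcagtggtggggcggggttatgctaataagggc
Ifi44: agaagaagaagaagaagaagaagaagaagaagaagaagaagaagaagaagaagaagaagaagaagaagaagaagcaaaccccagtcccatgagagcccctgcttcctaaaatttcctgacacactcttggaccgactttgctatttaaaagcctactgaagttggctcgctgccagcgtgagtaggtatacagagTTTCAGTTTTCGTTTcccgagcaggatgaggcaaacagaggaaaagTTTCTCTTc
Cmpk2: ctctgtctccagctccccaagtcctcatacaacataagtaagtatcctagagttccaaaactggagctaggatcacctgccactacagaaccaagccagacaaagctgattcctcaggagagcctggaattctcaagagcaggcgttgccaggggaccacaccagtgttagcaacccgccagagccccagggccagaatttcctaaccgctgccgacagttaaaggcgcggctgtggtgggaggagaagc

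Rsad2 held 1 ISRE core between 120 and 111 bases before its start, on the opposite strand, and a further IRF core between 106 and 99 bases. Bst2 held 2 overlapping ISRE cores between 130 and 115 bases before its start, with 1 GAS match between 136 and 128 bases that overlaps the first of them, and also 1 kappaB match. Ifi44 held no ISRE core and 3 IRF cores, 2 of them overlapping between 55 and 41 bases before the start. Cmpk2 and Samhd1 held neither core, and Samhd1 held 1 GAS match. The RefSeq starts of Ifi44, Samhd1 and Cmpk2 lie inside the genes as GENCODE places them. Part of each of these windows, and most of that of Samhd1, is therefore within the GENCODE gene. In Ifi44 that part holds the IRF cores at 48 to 41 and 9 to 2 bases before the RefSeq start. Among 32851 promoter windows of the same length, 2.98% held an ISRE core, 21.3% an IRF core, 7.02% a GAS match and 3.90% a kappaB match. A match is a match in sequence and not a known site, and the absence of one says only that these letters are not in the window.

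For each gene, the genes with the most similar course across the 12 libraries were found as those with the smallest root mean square difference of log2(FPKM + 1) after each gene was centred on its own mean. The 12 values share libraries and scaling, so this is a description. Mx1 was closest to AW112010 (0.368 on the log2 scale), Isg15 (0.378) and Ccl12 (0.416). Mx2 was closest to Tnfaip3 (0.198), Il4i1 (0.254) and Iigp1 (0.255). Rsad2 was closest to Ifit1 (0.439), which encodes an RNA-binding antiviral protein, and Cmpk2 to Gbp5 (0.149), a guanylate-binding GTPase gene, then to Ifit1 (0.269) and Ifit2 (0.273). Samhd1 was closest to Gbp9 (0.108), Stat2 (0.108), a subunit of ISGF3, and Nod1 (0.122). Ifi44 was closest to Cflar (0.0889), Serpina3f (0.113) and Herc6 (0.127), and Bst2 to 1110038F14Rik (0.0609), Sowahc (0.0724) and Vps54 (0.0795). Among the 7 themselves, Mx1 and Cmpk2 were the closest at 0.550 and Rsad2 and Bst2 the farthest apart at 3.82.

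Most other antiviral effectors were lower too at the deposited scaling, whereas scaled to Actb 8 of them were called higher after LPS, with a median of 0.92 beside 1.05 for all genes tested. Of 20 other antiviral effectors, 19 were tested, since Ifi44l was listed at 0 in all 12 libraries. After LPS 17 of these were lower and 1 higher in Pim1-/- cells at the FDR threshold, against 43.4% and 37.6% of all genes tested. Ch25h, a sterol hydroxylase gene, was the 1 of 19 called lower, a share close to the 5.15% of all genes tested, at -1.84 ± 0.067 (adjusted p = 1.8e-12, limma). Their median was -0.46. In untreated cells 6 were called lower, Ifit1, Ifit2, Ifit3, Oasl2, Gbp2 and Isg15, against 3.37% of all genes tested, with a median of -0.57. Ifit1 was at -1.98 without LPS and at -0.27 with it, and Ifit3 at -2.54 and -0.20.

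Of 21 genes for interferon induction and signalling, 20 were tested. After LPS 5 were called lower: Irf7 (-1.05), Ifnar1 (-1.26), Jak1 (-1.30), Stat2 (-1.04) and Socs1 (-1.49), against 5.15% of all genes tested. Ifnar1 encodes a chain of the type I interferon receptor, Jak1 a kinase of the pathway and Stat2 a subunit of ISGF3, while Ifnar2 (-0.35) and Tyk2 (-0.37) of the same receptor complex were not called. Of these 5 calls, 1 was left under quantile normalization, 3 under a common column sum and none scaled to Actb, where 10 genes of the list were called higher. In untreated cells 4 were called lower, Ikbke, Irf7, Irf1 and Stat2, against 3.37% of all genes tested. The count stayed at 4 under quantile normalization and a common column sum. Scaled to Actb it was 2, with a list median of -0.16 beside 0.27 for all genes tested. Ifnb1, the interferon-beta gene, was listed at 0 in all untreated libraries but reached 8.50 ± 0.906 FPKM in LPS-treated WT and 15.5 ± 1.27 FPKM in LPS-treated Pim1-/- cells. This was a log2 fold change of 0.80 ± 0.069 (adjusted p = 3.9e-08, limma) that missed 2-fold. At 4 h and at the deposited scaling the 7 effectors and Ifnb1 thus differed between genotypes in opposite directions. Ifnb1 was also above 0 and not called under median-ratio, quantile and column-sum scaling (0.77 to 0.97). Scaled to Actb it was called higher, at 2.03. Every effector except Mx1 then stood above 0 too, Mx2 at only 0.02, so the contrast depends on the scaling.

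Viperin, Cmpk2 and Samhd1 act on nucleotides, and 16 genes of nucleotide supply were examined for that reason. Of 15 tested, 7 were called higher in Pim1-/- cells after LPS, against 3.51% of all genes tested, among them Rrm1 (2.93) and Rrm2 (2.18) of ribonucleotide reductase and Tk1 (2.68), thymidine kinase. Scaled to Actb 13 were called higher. In untreated cells 9 were called higher, against 4.40% of all genes tested, and 1, Tk2, lower. Samhd1, whose product breaks down dNTPs, was called lower in both of these comparisons at the deposited scaling, and in neither when scaled to Actb (-0.80 untreated, 0.16 after LPS). Several genes of this list are transcribed mainly in dividing cells, and the part of cell division in these values was not tested. Of 14 proinflammatory genes, none was called lower after LPS at the deposited scaling, and 2 were called higher, Cxcl1 (2.72) and Cxcl2 (1.34), against 5.15% and 3.51% of all genes tested. At the FDR threshold alone 7 were lower and 4 higher, against 43.4% and 37.6% of all genes tested. Scaled to Actb 8 of the 14 were called higher after LPS, with a median of 1.22 beside 1.05 for all genes tested.

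**Figure D4:**
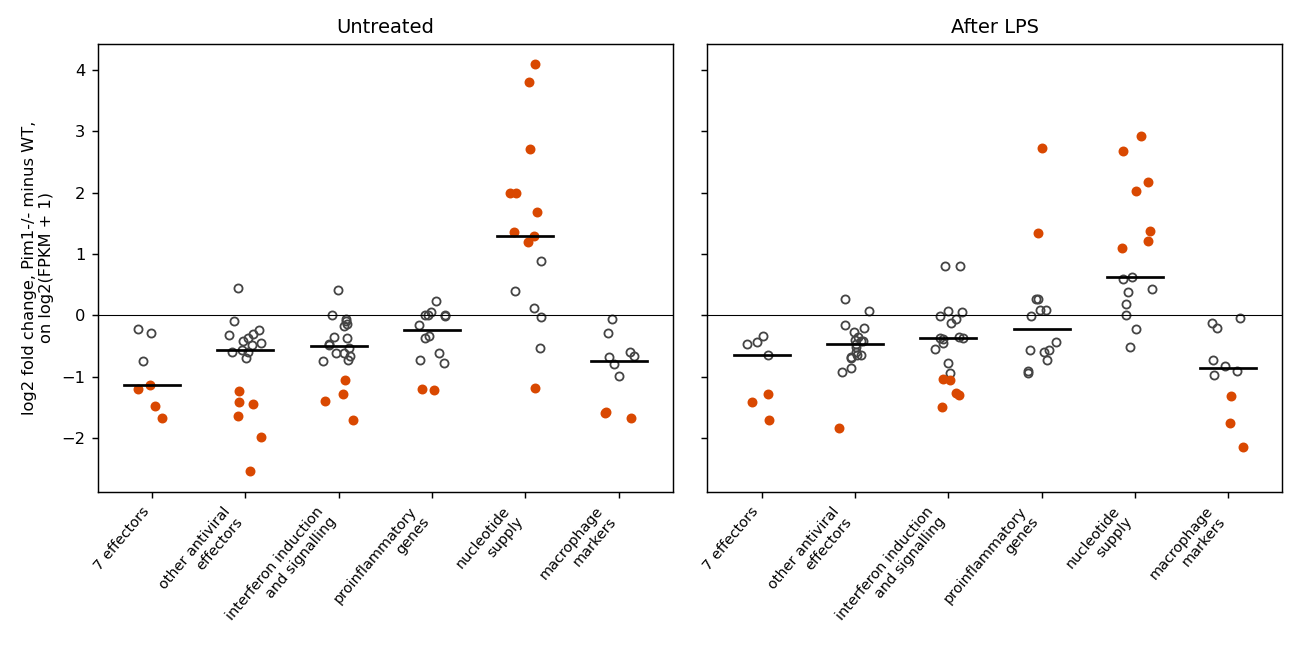
Log2 fold change, Pim1-/- minus WT on log2(FPKM + 1), of every tested gene of the 7 effectors and of 5 other gene lists, in untreated cells (left) and after LPS (right). Filled points were called, open points were not, and lines mark list medians. The 7 effectors have medians of -1.14 and -0.65, and the medians of the nucleotide supply genes are 1.29 and 0.62, with single genes of that list below 0 in both panels. Scaled to Actb the median of the 7 was -1.23 and 0.80, beside 0.27 and 1.05 for all genes tested.

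Macrophage markers differed between the genotypes as well, at the deposited scaling. Of 10, 3 were called lower in Pim1-/- cells both without and with LPS, Csf1r, Fcgr1 and Mertk, against 3.37% and 5.15% of all genes tested. The summed level ran from 27890 to 29940 FPKM in untreated WT against 14400 to 15320 FPKM in untreated Pim1-/- libraries. After LPS the sums were 30810 to 31300 and 15920 to 17790 FPKM, with Lyz2 as most of each. Scaled to Actb 3 were called lower in untreated cells. After LPS none was then called lower and 2 were called higher, and the list's median was 0.30 beside 1.05 for all genes tested. In bulk RNA fewer cells of a type and less RNA per cell cannot be told apart, and the part of this difference in the values of the 7 genes was not tested. Bst2 is also a surface antigen of plasmacytoid dendritic cells. The 10 markers of that cell type summed to 44.6 to 47.9 FPKM in untreated WT, 52.3 to 60.5 in untreated Pim1-/-, 60.8 to 63.0 in LPS-treated WT and 60.7 to 66.1 FPKM in LPS-treated Pim1-/- libraries. Tcf4 (group means of 7.50 to 48.0 FPKM) and Lair1 (12.5 to 45.3 FPKM) made up most of these sums. Siglech was at 0.753 FPKM at most as a group mean, and Klk1 and Ly6d were at 0 in all 12 libraries. Bst2 was at 89.0 FPKM or more in every library, and the part of such cells in its values was not tested.

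**Figure D5:**
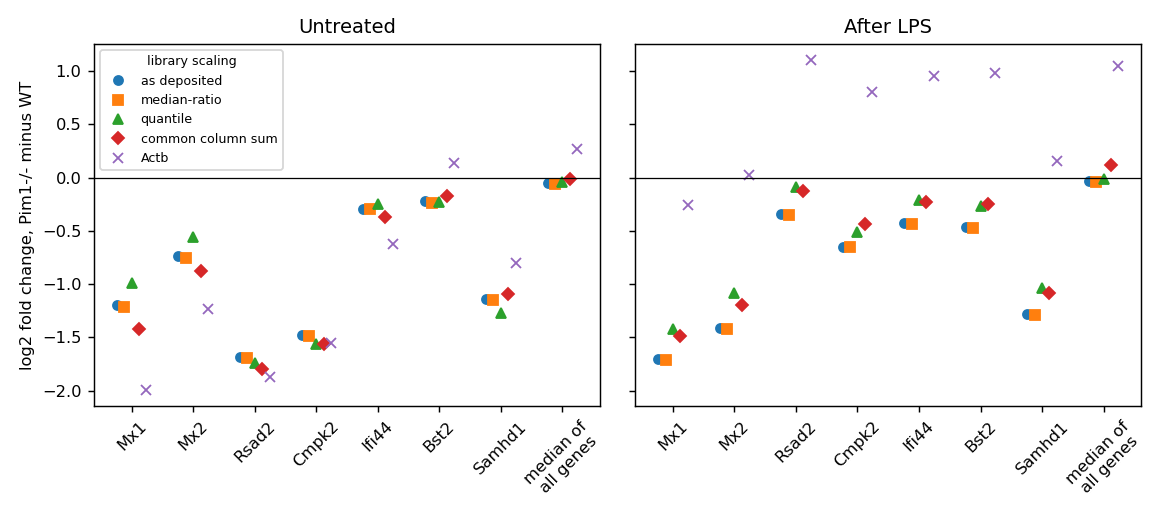
Log2 fold change, Pim1-/- minus WT, of each gene and of the median of all genes tested under 5 library scalings, in untreated cells (left) and after LPS (right). Deposited, median-ratio, quantile and column-sum values lie below 0 for all 7 genes in both panels. Scaled to Actb, Bst2 in untreated cells and all genes except Mx1 after LPS lie above 0, and so does the median of all genes.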

How the data were processed

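Total RNA of the BMDMs was made into 12 stranded mRNA libraries. Per the labels, the submitters' processing notes name bcl2fastq 2.20.0.422, cutadapt 1.18, TopHat2 2.0.13, Cuffdiff 2.2.1 and the build mm10, whereas the paper's methods name a rat build. Which annotation was used is not stated in these sources. The deposited columns carry no unit and were read as FPKM made by the authors with Cuffdiff, from their decimals and sums. Such values hold no counts. Depth was estimated from the step between low values, taking the longest transcript of each gene, so fragment numbers are rough upper estimates.

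Genes that reached 1 FPKM in 3 or more libraries (10581 of 23997, all 7 members included) were fitted on log2(FPKM + 1) with limma 3.58.1 in R 4.3.3, as 4 group means with a mean-variance trend. This scale understates the change of low genes. P-values were adjusted by Benjamini-Hochberg over all genes tested, for 5 comparisons. The fit was run on simulated data for the comparison after LPS. There 200 of 200 genes changed 3-fold were recovered among 10581 genes, and 0 unchanged genes were called. The changed genes were at 5 FPKM or more in LPS-treated WT cells, and the noise was the small spread between libraries of a group. Those settings nearly fixed the outcome, so it checks the code and does not test low genes or library scaling. The methods give the thresholds of 2-fold, p under 0.05 and FDR under 0.1 for genes that rose, and they were applied in both directions. The members and gene lists were chosen with earlier results of these data known, and nearest genes were named as the 3 with the smallest distance. Marker and list genes named in the text are those called, and the others named were chosen after their values were seen. Adgre1 was matched through its older symbol Emr1, and Ly6g and Trac had no match.

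Alternatives covered the pseudocount (0.1), other filters (none, or 5 FPKM), quantile and median-ratio scaling, the groups compared alone, a replicate block, FDR under 0.05 with no fold threshold, limma without a trend and leaving out each library. Scaling to a common column sum and to Actb were added after the data were seen. Replicate numbers were checked for pairing over 3646 genes. Same-numbered libraries deviated together between the genotypes without treatment (r = 0.33 to 0.46) and between treatments in Pim1-/- cells (0.43 to 0.68), and less so between genotypes after LPS (0.02 to 0.37) and between treatments in WT cells (-0.10 to 0.19). The pairing comes from the values, since no source used here says what a number marks.

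Gene positions and overlaps were read from GENCODE M21 and promoter windows from RefSeq with Python 3.11.15 (pandas 2.3.3, numpy 2.4.6, matplotlib 3.10.9).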

Additional observations from a re-analysis of the deposited data

Results flagged for a closer look

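For 6 of the 7 genes the response to LPS differed between genotypes at the FDR threshold in limma, as did 68.5% of all genes tested. The difference, Pim1-/- minus WT on log2(FPKM + 1), was 1.34 for Rsad2 and 0.83 for Cmpk2, the viperin pair, and both kept this direction under every alternative run. It was -0.50 for Mx1 and -0.67 for Mx2, and these 2 signs hold only with a pseudocount of 1 and without scaling to Actb. It was -0.24 for Bst2 and -0.14 for Samhd1, both small beside a called change. The sign of Bst2 turned when scaled to Actb (0.85). That of Samhd1 turned there too (0.96), and also under quantile normalization (0.23) and a common column sum (0.02). In FPKM, the Pim1-/- mean of Rsad2 went from 16.5% of WT without LPS to 79.0% with it and that of Cmpk2 from 22.4% to 64.0%. Mx1 (3.25% to 30.8%), Mx2 (12.2% to 37.4%) and Ifi44 (7.01% to 73.6%) also moved towards WT by this measure, from few fragments without LPS. Samhd1 stayed at 44.4% and 41.1%, and Bst2 went from 85.6% to 72.7%. Among other antiviral effectors the difference in response was also called for Ifit1 (1.71), Ifit2 (1.05) and Ifit3 (2.34), and the other way for Ch25h (-2.29).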

How the results depend on the processing

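Of 763 alternative values, 732 kept their direction and their side of the threshold, 7 passed it newly, 5 lost it and 19 changed sign. This total does not measure stability. The filters, replicate block, limma without a trend and groups compared alone cannot move a log2 fold change. Of the values, 420 came from leaving out a library, often one outside the comparison. Median-ratio scaling nearly repeated the deposited one. All changes came from the smaller pseudocount, quantile normalization, column sum and Actb. Of the values scaled to Actb, 17 were kept, 12 changed sign, 2 passed the threshold newly and 4 lost it. Leaving out each library in turn changed no call of the 7 genes, and the counts called stayed at 3 (after LPS), 4 (untreated), 7 and 7 (LPS in WT and Pim1-/- cells) and 1 (difference in response). The replicate block, where the numbers pair libraries in part, left these counts at 3, 4, 7, 7 and 1 as well.

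With FDR under 0.05 and no fold threshold, 7, 7 and 6 genes were called after LPS, in untreated cells and for the difference in response. For that difference 4 genes were called with a pseudocount of 0.1, 2 under quantile normalization, 2 under a common column sum and 5 scaled to Actb. It changed sign with a pseudocount of 0.1 for Mx1 (1.67), Mx2 (0.80) and Ifi44 (1.13), under quantile normalization for Ifi44 (0.04) and Samhd1 (0.23), under a common column sum for Ifi44 (0.14) and Samhd1 (0.02), and scaled to Actb for Mx1 (1.73), Mx2 (1.26), Bst2 (0.85), Samhd1 (0.96) and Ifi44 (1.57). Scaled to Actb, 1 gene was called after LPS, Rsad2, as higher, and the log2 fold changes after LPS were 1.10 (Rsad2), 0.98 (Bst2), 0.95 (Ifi44), 0.80 (Cmpk2), 0.16 (Samhd1) and 0.02 (Mx2). That of Bst2 in untreated cells was 0.14. The median of all genes then moved to 1.05 after LPS, 0.27 in untreated cells and 0.80 for the difference, which the construction of this scaling brings since Actb itself differed between groups. Under a common column sum the median moved to 0.12, -0.01 and 0.11.

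The values used here are not counts, so no count test was run, and values of the 7 genes at or under 0.117 FPKM rest on 13 fragments or fewer. The deposited scaling left size factors between 0.986 and 1.01. Whether total RNA per cell differed between groups was not tested.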
